A study of Bos taurus with 8 samples.

Results

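The 6 enzymes and enzyme subunits EZH2, EED, SUZ12, KDM6A, SETD2 and KMT5B, which write or erase methyl groups on 3 histone lysines, were followed in cattle embryos. They were chosen by name, with earlier results of these data known. Each of the 6 symbols was carried by exactly 1 of the 21258 features in the deposited files. RNA was sequenced from pools of 8 Holstein embryos at the eight-cell stage. The 3 groups were cloned embryos that overexpressed the histone H3 lysine 9 demethylase KDM4E (KDM4E-SCNT, 2 libraries), embryos from in vitro fertilisation (IVF, 3 libraries) and cloned embryos without KDM4E overexpression (SCNT, 3 libraries). SCNT, somatic cell nuclear transfer, puts the nucleus of a body cell into an egg, and both cloned groups share it. The series names plain SCNT as the control of the other groups. Donor cells, embryo sex, collection time and the way KDM4E was supplied are not in the labels. Nothing states that the pools of a group are separate collections, so a p-value here reflects the spread among these libraries alone, and that spread may be technical.

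Polycomb repressive complex 2 (PRC2) places methyl groups on lysine 27 of histone H3 (H3K27), a mark of silenced developmental genes. EZH2 is its catalytic subunit, EED reads the mark and stimulates the enzyme, and SUZ12 is the scaffold that holds the complex together. KDM6A, also called UTX, removes methyl groups from H3K27 and belongs to an enhancer-activating complex with the methyltransferases KMT2C and KMT2D. SETD2 trimethylates lysine 36 of histone H3 (H3K36) along transcribed genes, and KMT5B, also called SUV420H1, adds the second and further methyl groups to lysine 20 of histone H4 (H4K20) in condensed chromatin. In mammalian embryos these marks are rebuilt between fertilisation and implantation, and in cattle the embryo's own genome becomes strongly active around the eight-cell stage and after it.

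In the build the files use (UMD3.1), EZH2 (ENSBTAG00000009426.5) spans bases 112815327 to 112848415 of chromosome 4, and EED (ENSBTAG00000007847.5) bases 9325136 to 9355669 of chromosome 29. SUZ12 (ENSBTAG00000018752.3) spans bases 18507782 to 18544957 of chromosome 19, and KDM6A (ENSBTAG00000003740.5) bases 104047768 to 104164066 of the X chromosome. SETD2 (ENSBTAG00000002948.5) spans bases 53011796 to 53070746 of chromosome 22, and KMT5B (ENSBTAG00000001185.5) bases 46322745 to 46345025 of chromosome 29. EED and KMT5B thus share a chromosome and lie far apart on it. Each value sums the transcripts listed for the gene, 3 for EED, 7 for KMT5B, 6 for EZH2 and 5 for each of the others, all but 1 of them per gene from the authors' own transcript assembly. Values are FPKM, fragments scaled to transcript length and to the mapped fragments of the library, so levels of different genes can be set side by side.

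The libraries listed 10975 to 13050 features at 1 FPKM or more, and read depth cannot be computed from these values. The feature taken as KDM4E (LOC524768, an uncertain identity) stood at 101.85 and 206.44 FPKM in KDM4E-SCNT, 88.34 to 109.12 FPKM in IVF and 25.44 to 33.93 FPKM in SCNT. All 13 oocyte and early embryo markers were found, with summed levels of 21103 and 24915 FPKM in KDM4E-SCNT, 27253 to 34751 FPKM in IVF and 4756 to 9938 FPKM in SCNT. Of 20 fibroblast markers, 18 were in the files and summed to 80.8 and 498 FPKM in KDM4E-SCNT, 32.7 to 56.2 FPKM in IVF and 109 to 191 FPKM in SCNT. TIMP1, LGALS1, LUM and SPARC carried most of the 498 FPKM in KDM4E-SCNT replicate 2, at 135.01, 127.17, 84.6 and 53.32 FPKM, and the matrix genes POSTN, DCN and IGFBP7 stood there at 28.61, 13.12 and 12.67 FPKM. In IVF, LUM reached at most 4.66 FPKM and POSTN at most 0.22 FPKM. The collagen genes of the same list, COL1A1, COL1A2 and COL3A1, stayed between 0 and 4.58 FPKM in all 8 libraries, and between 1 and 6 of the 18 markers were listed at 0 per library. The 10 cumulus and granulosa markers summed to 46.1 and 100.3 FPKM in KDM4E-SCNT, 104 to 163 FPKM in IVF and 16.9 to 25.5 FPKM in SCNT. In them HAS2, STAR and TNFAIP6 had the highest means, while the defining receptor FSHR was at 0 in 7 of 8 libraries. The 10 sperm markers (led by LDHC, CRISP2 and ODF2) summed to 27.9 to 96.9 FPKM, highest in IVF, and TNP2 was at 0 in 7 libraries. The 7 blood markers summed to 16.9 to 142.75 FPKM, highest in SCNT. HBA and HBA1, near copies that share reads, led this list with CD3E next, and HBB was at 0 in 5 libraries. The part of these markers in the results that follow was not tested.

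All 6 genes differed between IVF and SCNT. EED, SUZ12, KDM6A, SETD2 and, by less, EZH2 were lower in IVF, and KMT5B was higher. KDM4E-SCNT embryos differed from plain SCNT in the same direction for EED, SUZ12, KDM6A, SETD2 and KMT5B, while EZH2 did not pass the test. Against IVF, KDM4E-SCNT embryos were higher in EED, KDM6A and SETD2, and EZH2, SUZ12 and KMT5B did not pass. A difference counts as called at an adjusted p under 0.05 in limma, fitted over 14839 features on log2(FPKM + 1), a scale that understates changes of low genes. All 6 genes passed the filter on low values.

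**Figure D1:**
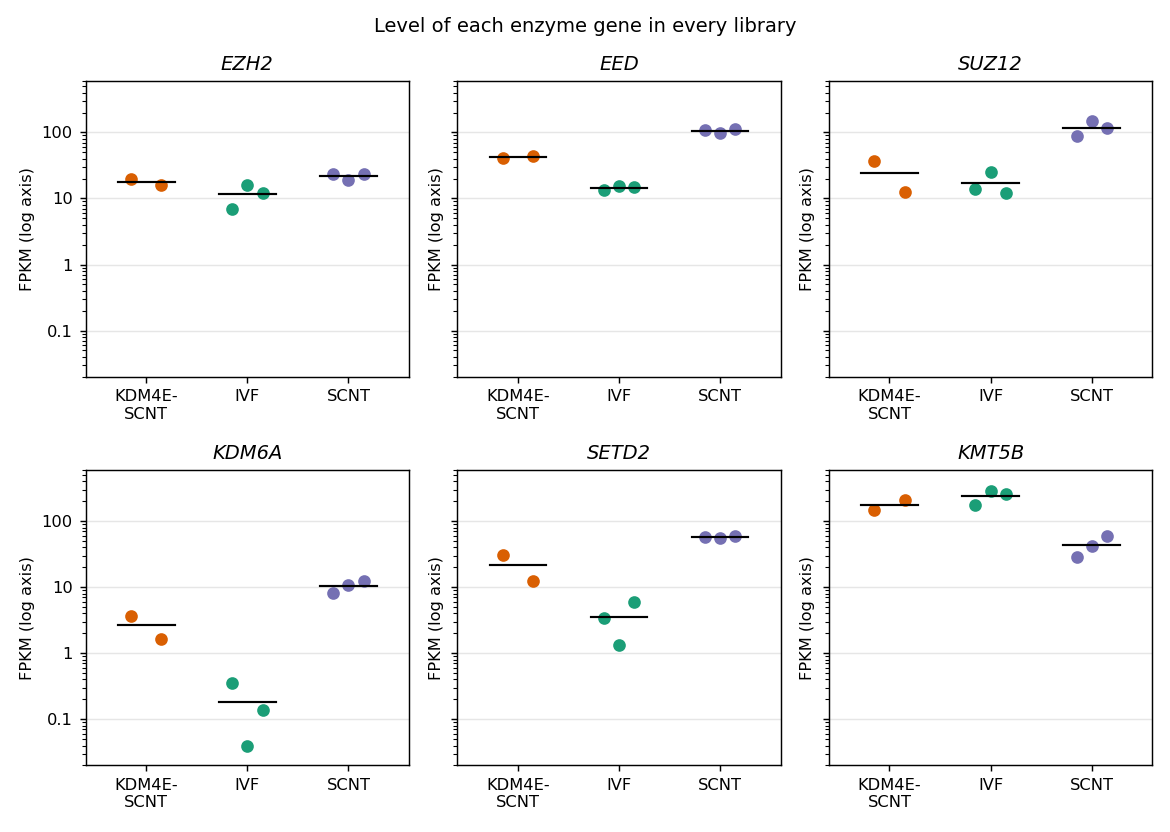
FPKM of each of the 6 genes on a shared log axis, with 1 point per library (KDM4E-SCNT 2, IVF 3, SCNT 3) and a bar at each group's mean. KMT5B is lowest in SCNT, the other 5 genes are highest in SCNT by group mean, and KDM6A in IVF lies at or below 0.36 FPKM in every library.

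These counts have to be read against a transcriptome in which much differed. Here and below, shares called, differences and medians of all features refer to the 14839 features tested. Between IVF and SCNT, all 6 genes were called, against 58.5% of all features: 5 of the 6 genes were called lower, against 23.6% of all features, and 1 was called higher, against 34.9%. The libraries of these groups did not overlap for any of the 6 genes, nor for 64.4% of all features. Between KDM4E-SCNT and SCNT, 5 genes were called, against 32.6% of features. Of these, 4 genes were lower, against 11% of features, and 1 higher, against 21.6%, and 5 did not overlap, against 59.5% of features. Between KDM4E-SCNT and IVF, 3 genes were called, against 6.52% of features. All 3 were higher, against 5.9% of features, and 0 lower, against 0.62% (0 also at an unadjusted p under 0.05), and 4 did not overlap, against 33.9%. The comparisons share libraries, so they are not independent of one another. The median log2 difference of the 6 genes was -2.77 for IVF minus SCNT, against 0.39 over all features. It was -1.40 against 0.32 for KDM4E-SCNT minus SCNT, and 1.05 against -0.03 for KDM4E-SCNT minus IVF.

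The shift of all features depended on scaling. With median-ratio scaling the medians of all features became 0.10 (IVF minus SCNT) and 0.02 (KDM4E-SCNT minus SCNT). The share of called features that were higher became 48.9% in place of 59.7% for IVF and 43.2% in place of 66.2% for KDM4E-SCNT, and 49.8% for KDM4E-SCNT under quantile normalization. Relative to the median of all features as deposited, the IVF minus SCNT differences were -1.31 for EZH2, -3.17 for EED, -3.16 for SUZ12, -3.67 for KDM6A, -4.20 for SETD2 and 2.07 for KMT5B. For KDM4E-SCNT minus SCNT they were -0.62 for EZH2, -1.63 for EED, -2.71 for SUZ12, -2.01 for KDM6A, -1.82 for SETD2 and 1.74 for KMT5B. No scaling turned the direction of any of these 6 genes in these comparisons.

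EED was the most even of the PRC2 core genes within groups. KDM4E-SCNT held 40.46 and 43.6 FPKM, IVF 13.25, 15.34 and 14.93 FPKM, and SCNT 107.8, 96.47 and 111.33 FPKM. The groups did not overlap, with SCNT highest, KDM4E-SCNT between and IVF lowest, and each step in that order passed the test. In KDM4E-SCNT, EED was 2.47-fold lower than in SCNT (log2 difference -1.30 ± 0.29 (SE), limma adjusted p = 0.00592) and 2.78-fold higher than in IVF (1.47 ± 0.29, adjusted p = 0.00775). IVF averaged 14.5 ± 1.11 FPKM and SCNT 105 ± 7.76 FPKM (SD, n = 3 each), a 6.85-fold lower level in IVF (-2.78 ± 0.26, adjusted p = 4.23e-06). The call between KDM4E-SCNT and IVF ended without KDM4E-SCNT replicate 1 (1.53, adjusted p = 0.0580).

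SUZ12 had the widest spread inside KDM4E-SCNT among the PRC2 genes. Its levels were 36.31 and 12.38 FPKM in KDM4E-SCNT, 13.92, 25.33 and 11.93 FPKM in IVF and 88.64, 148.2 and 117.34 FPKM in SCNT. All SCNT libraries lay above all others, and KDM4E-SCNT replicate 2 lay within the IVF range. SUZ12 was 5.22-fold lower in KDM4E-SCNT than in SCNT (-2.38 ± 0.46, limma adjusted p = 0.00284), and only 1.0% of the features tested had a more negative difference. IVF averaged 17.1 ± 7.23 FPKM against 118 ± 29.8 FPKM in SCNT (SD, n = 3 each), 6.78-fold lower (-2.76 ± 0.41, adjusted p = 0.000111). KDM4E-SCNT minus IVF was 0.38 ± 0.46 (adjusted p = 0.699), with a 95% interval from -0.61 to 1.37, so these neighbours in the order did not differ beyond their spread. That difference turned to -0.36 without KDM4E-SCNT replicate 1. The difference from SCNT was -1.64 without KDM4E-SCNT replicate 2, at an adjusted p = 0.0499.

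EZH2, the catalytic subunit, had the smallest differences of the 6 genes in both comparisons with SCNT, but not between KDM4E-SCNT and IVF. KDM4E-SCNT held 19.4 and 15.91 FPKM, IVF 6.96, 15.84 and 11.97 FPKM, and SCNT 23.51, 18.83 and 23.17 FPKM. KDM4E-SCNT overlapped SCNT, and its lower library was just above the highest IVF library. IVF averaged 11.6 ± 4.45 FPKM and SCNT 21.8 ± 2.61 FPKM (SD, n = 3 each), 1.89-fold lower in IVF (-0.92 ± 0.33, limma adjusted p = 0.0306). Leaving out IVF replicate 1 ended that call (-0.62, adjusted p = 0.124), as did leaving out IVF replicate 3 (0.0581), SCNT replicate 1 (0.0852) or SCNT replicate 3 (0.0881), and with each library rescaled to 1 total (-0.74, 0.0800). KDM4E-SCNT minus SCNT was -0.29 ± 0.37 (adjusted p = 0.567, 95% interval -1.10 to 0.51), and KDM4E-SCNT minus IVF was 0.63 ± 0.37 (adjusted p = 0.383, interval -0.18 to 1.43). Both intervals include 0, and neither shows that the groups were alike.

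Because EED and SUZ12 differed by more than EZH2, the makeup of the core transcripts differed as well. The 3 core genes together reached 96.2 and 71.9 FPKM in KDM4E-SCNT, 34.1, 56.5 and 38.8 FPKM in IVF and 219.95, 263.5 and 252 FPKM in SCNT. EZH2 was 20.2% and 22.1% of that sum in KDM4E-SCNT, 20.4%, 28% and 30.8% in IVF, and 10.7%, 7.15% and 9.20% in SCNT. Every KDM4E-SCNT and IVF library had an EZH2 share above every SCNT library. The mean share was 26.4% in IVF against 9.01% in SCNT, a difference of 17.4 points (two-sided exact permutation p = 0.1, the smallest that 3 against 3 libraries allows). It was 21.2% in KDM4E-SCNT against 9.01% in SCNT, a difference of 12.1 points (two-sided exact permutation p = 0.2, in a design of 2 against 3 libraries that cannot reach 0.05). SUZ12 made up 37.8% and 17.2% of the core in KDM4E-SCNT, 30.7% to 44.8% in IVF and 40.3% to 56.2% in SCNT, so that KDM4E-SCNT replicate 2 had the lowest SUZ12 share of all 8 libraries. EED held 42.1% and 60.6% in KDM4E-SCNT, 27.1% to 38.8% in IVF and 36.6% to 49.0% in SCNT.

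**Figure D2:**
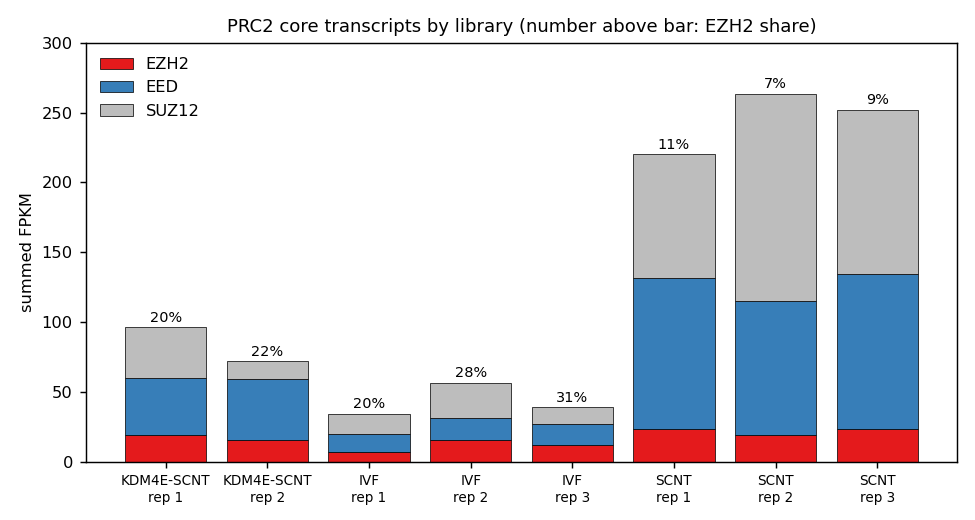
Stacked bars give the summed FPKM of EZH2 (bottom), EED (middle) and SUZ12 (top) in each of the 8 libraries, with the EZH2 share of the sum printed above. The SCNT bars reach 219.95 to 263.5 FPKM with EZH2 shares of 7.15% to 10.7%, while the KDM4E-SCNT and IVF bars are lower and their EZH2 shares are 20.2% or more.

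KDM6A, the H3K27 demethylase, was the scarcest of the 6 in every library. The KDM4E-SCNT pools had 3.69 and 1.65 FPKM, the IVF pools 0.36, 0.04 and 0.14 FPKM, and the SCNT pools 8.3, 10.66 and 12.42 FPKM. The 3 groups were fully separated in the order SCNT, KDM4E-SCNT, IVF. In IVF, KDM6A lay above 21.9% to 30.7% of all 21258 features, so near the bottom of the detected range, and in SCNT above 75.0% to 79.0%. IVF averaged 0.180 ± 0.164 FPKM and SCNT 10.5 ± 2.07 FPKM (SD, n = 3 each), 9.66-fold lower in IVF on the scale used (-3.27 ± 0.36, limma adjusted p = 1.22e-05). With a pseudocount of 0.25 in place of 1 this difference was -4.69, and that between KDM4E-SCNT and IVF was 2.74, so folds of this low gene depend on the pseudocount. KDM4E-SCNT was 3.21-fold lower than SCNT (-1.68 ± 0.40, adjusted p = 0.00773), a call that ended without KDM4E-SCNT replicate 2 (-1.27, adjusted p = 0.0929). At a pseudocount of 1 it was 3.01-fold higher than IVF (1.59 ± 0.40, adjusted p = 0.0311), but that call was lost in 10 of 17 alternatives, among them median-ratio scaling (adjusted p = 0.0507), quantile normalization (0.0723) and the fit without KDM4E-SCNT replicate 1 (1.18, adjusted p = 0.337), within a range of 0.0122 to 0.337.

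KDM6A is X-linked, and in human and mouse it escapes X inactivation. Of 746 features tested on the X chromosome, 34.2% were called lower and 26.7% higher in IVF than in SCNT, with a median difference of -0.11. On the other chromosomes 23.0% of 14093 features were lower and 35.4% higher, with a median of 0.42. For KDM4E-SCNT against IVF, 12.1% of X-linked and 5.57% of other features were higher. The sex of the pooled embryos and these differences cannot be told apart. The second H3K27 demethylase, KDM6B, was listed at 0.21 and 0.32 FPKM in KDM4E-SCNT, 0.21, 0.64 and 0.25 FPKM in IVF, and 0.03, 0 and 0 FPKM in SCNT, and did not pass the filter on low values.

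SETD2, the H3K36 trimethylase, had the largest IVF minus SCNT difference of the 6 genes at a pseudocount of 1, while at 0.25 that of KDM6A was larger (-4.69 against -4.12 for SETD2). The KDM4E-SCNT pools had 30.4 and 12.59 FPKM, the IVF pools 3.38, 1.35 and 5.98 FPKM, and the SCNT pools 57.09, 55.15 and 59.6 FPKM. SCNT was the tightest group, IVF was lowest, and the KDM4E-SCNT libraries lay between without touching either. IVF averaged 3.57 ± 2.32 FPKM against 57.3 ± 2.23 FPKM in SCNT (SD, n = 3 each), 14.0-fold lower (-3.81 ± 0.42, limma adjusted p = 1.35e-05), and 2.0% of all features had a more negative difference. KDM4E-SCNT was 4.97-fold higher than IVF (2.31 ± 0.47, adjusted p = 0.00951) and 2.82-fold lower than SCNT (-1.50 ± 0.47, adjusted p = 0.0288). Leaving out KDM4E-SCNT replicate 2 ended the call against SCNT (-0.89, adjusted p = 0.293). It also ended without SCNT replicate 1, 2 or 3 (adjusted p = 0.0694, 0.0559 and 0.0773) and with no filter on low values (0.0638). Against IVF the call ended when KDM4E-SCNT replicate 1 was left out (1.71, adjusted p = 0.185) and in a fit of only these groups (0.054).

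KMT5B, the H4K20 methyltransferase, ran the other way and was the most abundant of the 6 genes in every KDM4E-SCNT and IVF library. Its levels were 149.4 and 207.41 FPKM in KDM4E-SCNT, 175.41, 282.9 and 255.96 FPKM in IVF and 28.35, 41.31 and 60.34 FPKM in SCNT. KDM4E-SCNT and IVF overlapped, and both lay wholly above SCNT. In IVF, KMT5B lay above 97.2% to 98.5% of all 21258 features. The KDM4E-SCNT level exceeded that of SCNT 4.18-fold (2.06 ± 0.36, limma adjusted p = 0.00192). IVF averaged 238 ± 55.9 FPKM against 43.3 ± 16.1 FPKM in SCNT (SD, n = 3 each), 5.53-fold higher (2.47 ± 0.32, adjusted p = 4.63e-05). KDM4E-SCNT minus IVF was -0.40 ± 0.36 (adjusted p = 0.584, 95% interval -1.19 to 0.38). Leaving out a KDM4E-SCNT library leaves that group with 1 library, which the fit assumes to vary like the other groups, here and wherever such a value is given. KMT5B kept its calls against SCNT in all 17 alternatives, with adjusted p up to 0.0318 for KDM4E-SCNT and up to 0.000500 for IVF. In pooled embryos, fewer cells and less RNA per cell cannot be told apart for any of these genes.

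**Figure D3:**
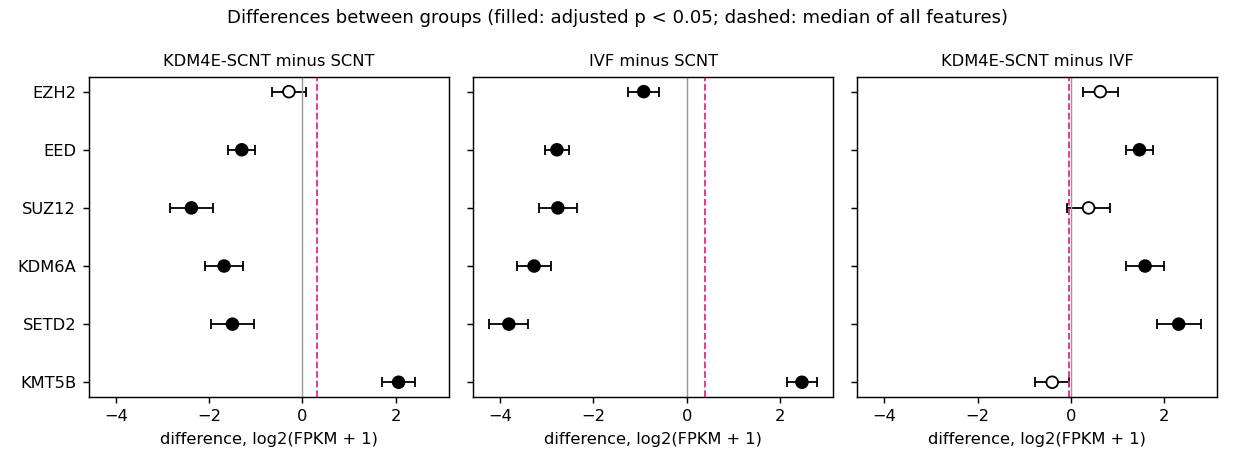
Log2 difference of each gene on the log2(FPKM + 1) scale in the 3 comparisons, with standard errors, a grey line at 0 and a dashed line at the median of all features tested. Filled points passed limma at an adjusted p under 0.05: all 6 for IVF minus SCNT, 5 for KDM4E-SCNT minus SCNT and 3 for KDM4E-SCNT minus IVF.

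The replicates of KDM4E-SCNT were not alike for these genes. Replicate 2 was the lower of the pair for EZH2, SUZ12, KDM6A and SETD2 and the higher for EED and KMT5B. For EZH2, SUZ12, KDM6A, SETD2 and KMT5B it was also the one nearer to the IVF mean. It was the library with the highest fibroblast marker sum (498 FPKM), above every SCNT library. The SCNT libraries had the next highest sums and held the highest EED, SUZ12, KDM6A and SETD2. Any link between the marker sums and these levels was not tested.

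Lists of related genes are given by their counts, to be read against the 34.9% of all features called higher and 23.6% called lower in IVF minus SCNT, and the 21.6% and 11% in KDM4E-SCNT minus SCNT. Of 7 tested genes in a list of accessory subunits with EZH1, 2 were higher and 2 lower in IVF than in SCNT, and 1 rose and 1 fell in KDM4E-SCNT against SCNT. AEBP2, which marks one PRC2 form, was lower, at 30.37 and 16.9 FPKM in KDM4E-SCNT, 9.02, 14.85 and 11.82 FPKM in IVF and 85.09, 76.29 and 91.74 FPKM in SCNT. Its differences from SCNT were -1.85 ± 0.35 in KDM4E-SCNT (limma adjusted p = 0.00267) and -2.75 ± 0.31 in IVF (adjusted p = 1.68e-05), close in size to those of EED and SUZ12, though this likeness was not tested. JARID2, the partner of AEBP2 in that form, was higher, at 12.13 and 13.18 FPKM in KDM4E-SCNT, 14.53, 9.37 and 17.23 FPKM in IVF and 4.48, 3.56 and 5.58 FPKM in SCNT. JARID2 differed from SCNT by 1.39 ± 0.33 in IVF (adjusted p = 0.00315) and by 1.32 ± 0.37 in KDM4E-SCNT (adjusted p = 0.0172), and its KDM4E-SCNT call ended without KDM4E-SCNT replicate 2 and under median-ratio or quantile scaling (adjusted p up to 0.103).

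PHF1 and MTF2 belong to the other PRC2 form, which they help to recruit. PHF1 was higher in IVF than in SCNT (1.23 ± 0.33, limma adjusted p = 0.00694), while MTF2 stood at 64.42 and 72.72 FPKM in KDM4E-SCNT, 60.41 to 76.97 FPKM in IVF and 49.85 to 71.67 FPKM in SCNT (IVF minus SCNT 0.16 ± 0.27, adjusted p = 0.610). The histone-binding subunits RBBP4 and RBBP7, similar genes that may share reads, were abundant throughout. RBBP4 was at 330.57 and 317.67 FPKM in KDM4E-SCNT, 205.34 to 270.07 FPKM in IVF and 317.73 to 557.9 FPKM in SCNT, lower in IVF (-0.83 ± 0.27, adjusted p = 0.0179), a call lost in 5 of 17 alternatives (adjusted p up to 0.421). RBBP7 ranged from 364.44 to 762.95 FPKM over the 8 libraries (IVF minus SCNT 0.30 ± 0.29, adjusted p = 0.390, and 0.91 with adjusted p = 0.0214 under quantile normalization).

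EZH1, the alternative catalytic subunit, was listed at low levels. It stood at 0.14 and 0.59 FPKM in KDM4E-SCNT, 0.51, 1.09 and 1.01 FPKM in IVF and 0.5, 0.17 and 0.29 FPKM in SCNT (IVF minus SCNT 0.50 ± 0.35, limma adjusted p = 0.239). EZH2 made up 99.3% and 96.4% of the EZH1 and EZH2 sum in KDM4E-SCNT, 92.2% to 93.6% in IVF and 97.9% to 99.1% in SCNT. PHF19 stayed at or below 0.46 FPKM.

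**Figure D4:**
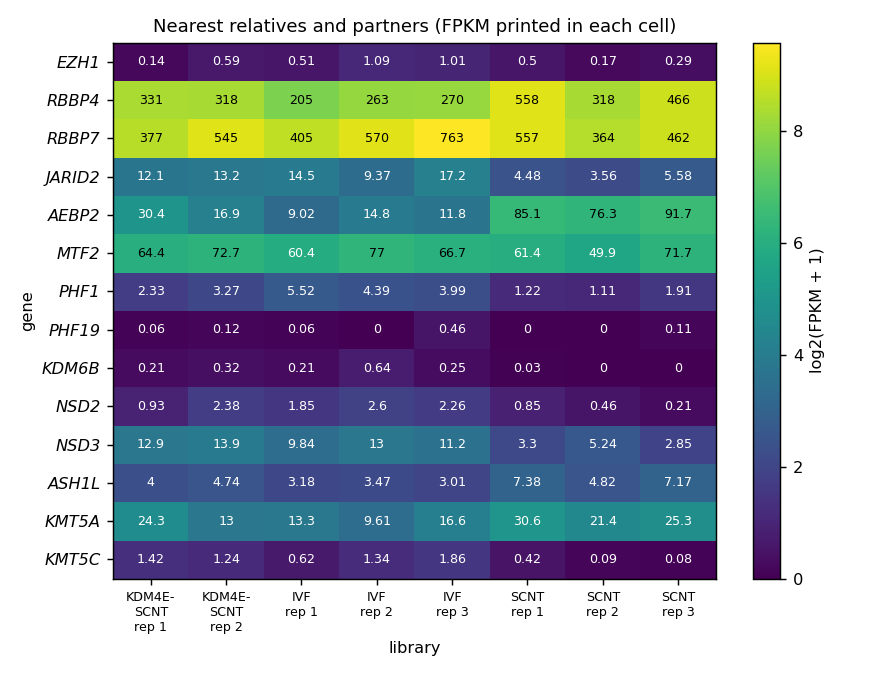
Heat map of log2(FPKM + 1) for 14 partners and relatives of the 6 genes in each library, with the FPKM printed in each cell. AEBP2 is highest in the 3 SCNT columns, JARID2 and NSD3 are lowest there, and EZH1, PHF19 and KDM6B are at or below 1.09 FPKM in all columns.

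PRC1 is the partner complex that ubiquitinates histone H2A. Of its 20 tested subunits, 6 were higher and 3 lower in IVF than in SCNT, with a median of -0.15 against 0.39 over all features, and median-ratio scaling turned these counts to 4 and 6. The 9 calls became 5 without SCNT replicate 2. In KDM4E-SCNT against SCNT, 3 rose and 1 fell (3 and 3 under median-ratio scaling), and there were 2 calls without KDM4E-SCNT replicate 2, SCNT replicate 1 or SCNT replicate 3. PCGF5, a subunit of variant PRC1, stood at 36.58 and 48.71 FPKM in KDM4E-SCNT, 32.45 to 66.36 FPKM in IVF and 3.89 to 9.41 FPKM in SCNT, a difference of 2.65 ± 0.42 in KDM4E-SCNT and 2.92 ± 0.37 in IVF (limma adjusted p = 0.00126 and 3.78e-05). PHC3, a polyhomeotic subunit, differed from SCNT by 1.93 ± 0.37 in KDM4E-SCNT and 2.44 ± 0.33 in IVF (adjusted p = 0.00269 and 5.56e-05). BMI1, the classic PRC1 RING partner, was lower than in SCNT in KDM4E-SCNT (-1.36 ± 0.38, adjusted p = 0.0161, up to 0.0923 without single libraries) and in IVF (-2.03 ± 0.34, adjusted p = 0.000248). MGA, of a variant PRC1, was lower in IVF (-2.59 ± 0.40, adjusted p = 0.000137) and was the PRC1 gene that differed between KDM4E-SCNT and IVF (1.70 ± 0.44, adjusted p = 0.0369, lost in 11 of 17 alternatives). It stood at 8.36 and 2.98 FPKM in KDM4E-SCNT, 0.45 to 1.36 FPKM in IVF and 8.25 to 13.43 FPKM in SCNT. The catalytic subunit RNF2 was chosen after its values were seen and stood at 196.25 and 166.76 FPKM in KDM4E-SCNT, 143.62 to 165.32 FPKM in IVF and 181.66 to 189.12 FPKM in SCNT (limma adjusted p = 0.917 for KDM4E-SCNT minus SCNT and 0.359 for IVF minus SCNT). Among 5 tested genes that remove the PRC1 mark or assist in it, ASXL1 was lower in IVF (-2.09 ± 0.38, adjusted p = 0.000460) and HCFC1 higher (1.08 ± 0.39, adjusted p = 0.0295, lost in 7 alternatives). ASXL1 stood at 0.03 to 1.1 FPKM in IVF and 4.68 to 6.5 FPKM in SCNT. None of the 5 was called in KDM4E-SCNT against SCNT in limma, and 1 had an unadjusted p under 0.05.

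Partners of KDM6A were called in both directions in IVF. Of 8 tested partners, 4 were higher and 1 lower in IVF than in SCNT, and 2 rose and 0 fell in KDM4E-SCNT, where median-ratio scaling gave 1 and 2. KMT2C, an enhancer H3K4 methyltransferase, stood at 47.54 and 39.74 FPKM in KDM4E-SCNT, 31.33 to 45.93 FPKM in IVF and 9.84 to 17.78 FPKM in SCNT. It was higher than in SCNT in KDM4E-SCNT (1.56 ± 0.35, limma adjusted p = 0.00592) and in IVF (1.40 ± 0.31, adjusted p = 0.00198). Its paralogue KMT2D was at or below 0.25 FPKM in every library. WDR5, a core subunit of these complexes, was higher by 1.46 ± 0.42 in KDM4E-SCNT (adjusted p = 0.0191, lost in 4 alternatives) and by 1.65 ± 0.37 in IVF (adjusted p = 0.00230), and PAXIP1 was higher by 1.47 ± 0.38 in IVF (adjusted p = 0.00500). PAGR1, the partner called lower in IVF and named after its values were seen, stood at 4.55 and 11.78 FPKM in KDM4E-SCNT, 3.85 to 9 FPKM in IVF and 12.87 to 16.2 FPKM in SCNT (IVF minus SCNT -1.35 ± 0.40, adjusted p = 0.0115).

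Of 7 tested genes listed as H3K36 methyltransferases beside SETD2, 3 were higher and 1 lower in IVF than in SCNT. In KDM4E-SCNT 2 rose and 0 fell, and neither call held without KDM4E-SCNT replicate 2. NSD3, which dimethylates H3K36, stood at 12.88 and 13.87 FPKM in KDM4E-SCNT, 9.84 to 13.01 FPKM in IVF and 2.85 to 5.24 FPKM in SCNT. It differed from SCNT by 1.61 ± 0.36 in KDM4E-SCNT (limma adjusted p = 0.00582; 0.0510 without KDM4E-SCNT replicate 2) and by 1.39 ± 0.32 in IVF (adjusted p = 0.00254). SMYD2 differed by 1.57 ± 0.44 in KDM4E-SCNT (adjusted p = 0.0164, lost in 3 alternatives) and by 2.04 ± 0.39 in IVF (adjusted p = 0.000725). NSD2 was higher (1.12 ± 0.37, adjusted p = 0.0192, lost in 2 of 16 alternatives) and ASH1L lower (-0.80 ± 0.32, adjusted p = 0.0452, lost in 9 of 17 alternatives) in IVF. Of 3 tested H3K36 demethylases, KDM4C, which also acts on H3K9, was higher in both groups than in SCNT (1.39 ± 0.33 in KDM4E-SCNT, adjusted p = 0.00785, 0.0886 without KDM4E-SCNT replicate 2, and 1.26 ± 0.29 in IVF, adjusted p = 0.00280). The feature carrying the symbol KDM4A, counted among these 3, has the description of another gene.

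Of 17 tested genes in a list of H3K36 and H4K20 readers, 9 were higher and 4 lower in IVF than in SCNT (7 and 5 under median-ratio scaling). In KDM4E-SCNT 6 rose and 2 fell (3 and 3). Of these 8 calls in KDM4E-SCNT, the number was 1 without KDM4E-SCNT replicate 2 and 5 without SCNT replicate 1. MSH6, a mismatch repair protein that binds trimethylated H3K36, was likewise highest in SCNT and lowest in IVF, at 30.73 and 11.45 FPKM in KDM4E-SCNT, 3.4, 2.24 and 6.18 FPKM in IVF and 79.5, 80.73 and 96.03 FPKM in SCNT. Its difference from SCNT was -2.12 ± 0.44 in KDM4E-SCNT (limma adjusted p = 0.00436, 0.0725 without KDM4E-SCNT replicate 2) and -4.20 ± 0.40 in IVF (adjusted p = 4.42e-06), and KDM4E-SCNT was above IVF by 2.09 ± 0.44 (adjusted p = 0.0122, lost in 2 of 17 alternatives). MORF4L1, a chromodomain reader of H3K36, was lower, with differences of -1.20 ± 0.28 in KDM4E-SCNT and -1.63 ± 0.25 in IVF (adjusted p = 0.00746, 0.0653 without KDM4E-SCNT replicate 2, and 0.000155). PSIP1, another reader, was higher than in SCNT in KDM4E-SCNT (1.11 ± 0.31, adjusted p = 0.0178) and in IVF (1.85 ± 0.28, adjusted p = 0.000135). Its KDM4E-SCNT call ended without KDM4E-SCNT replicate 2. HDGF was likewise higher in KDM4E-SCNT (2.04 ± 0.37, adjusted p = 0.00232) and in IVF (1.52 ± 0.33, adjusted p = 0.00183). Its levels were low, at 4.37 and 5.68 FPKM in KDM4E-SCNT, 2.81 to 4.08 FPKM in IVF and 0.33 to 0.65 FPKM in SCNT.

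Of 6 tested genes listed as H4K20 methyltransferases or demethylases beside KMT5B, 1 was higher and 2 lower in IVF than in SCNT. Leaving out SCNT replicate 1, SCNT replicate 3 or IVF replicate 2 gave 0 calls. In KDM4E-SCNT against SCNT 0 were called in limma, with 1 at an unadjusted p under 0.05. KMT5A, which places the first methyl group on H4K20, stood at 24.31 and 12.97 FPKM in KDM4E-SCNT, 9.61 to 16.63 FPKM in IVF and 21.35 to 30.65 FPKM in SCNT (IVF minus SCNT -0.93 ± 0.34, limma adjusted p = 0.0301, lost in 5 of 17 alternatives). KMT5C, the paralogue of KMT5B, stood at 1.42 and 1.24 FPKM in KDM4E-SCNT, 0.62 to 1.86 FPKM in IVF and 0.08 to 0.42 FPKM in SCNT (0.90 ± 0.36, adjusted p = 0.0464, lost in 8 of 16 alternatives). RSBN1 was lower in IVF (-0.90 ± 0.33, adjusted p = 0.0333, lost in 6 alternatives).

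**Figure D5:**
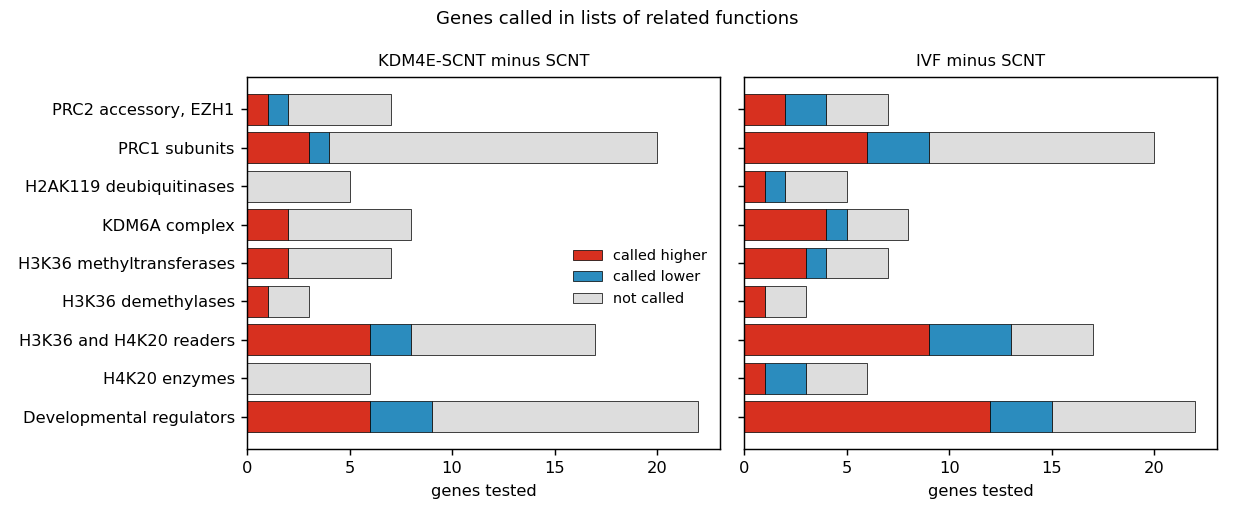
For 9 lists of related genes, bars give the number of tested genes called higher, called lower or not called in KDM4E-SCNT minus SCNT (left) and IVF minus SCNT (right). The longest bars, with 22, 20 and 17 genes, are developmental regulators, PRC1 subunits and readers of H3K36 and H4K20.

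Developmental regulators that Polycomb binds in mouse and human embryonic stem cells were mostly at low levels. Of 69 listed, 45 were in the files and 22 passed the filter. At 1 FPKM or more there were 18 and 16 in the KDM4E-SCNT libraries, 18 to 21 in IVF and 12 to 19 in SCNT. Of the 22 tested, 12 were higher and 3 lower in IVF than in SCNT (9 and 4 under median-ratio scaling), and 6 rose and 3 fell in KDM4E-SCNT (4 and 3). The 15 calls in IVF became 9 without SCNT replicate 3 or with the stricter filter of 5 FPKM, and the 9 in KDM4E-SCNT became 2 without KDM4E-SCNT replicate 2 and 5 without KDM4E-SCNT replicate 1 or SCNT replicate 3. LHX2, a LIM homeobox factor, stood at 21.66 and 21.79 FPKM in KDM4E-SCNT, 24.88 to 34.57 FPKM in IVF and 1.16 to 2.05 FPKM in SCNT (3.22 ± 0.35 in KDM4E-SCNT and 3.57 ± 0.31 in IVF, limma adjusted p = 0.000422 and 2.7e-06). The homeobox factor MSX1 differed by 1.90 ± 0.36 and 2.35 ± 0.32, and the paired-box factor PAX3 by 1.91 ± 0.43 and 2.67 ± 0.39, again in KDM4E-SCNT and then in IVF (adjusted p = 0.00267 and 6.29e-05 for MSX1, 0.00642 and 0.000100 for PAX3). PAX3 lost its call in KDM4E-SCNT without KDM4E-SCNT replicate 2 (adjusted p = 0.0796). GATA6, named after its values were seen, differed from SCNT by -1.51 ± 0.5 in KDM4E-SCNT and -2.92 ± 0.44 in IVF (limma adjusted p = 0.0341 and 0.000132). HAND2 was also called lower in both groups (limma adjusted p = 0.0394 in KDM4E-SCNT and 0.0152 in IVF). It was near the floor, at 0 to 0.35 FPKM in these groups and 0.82 to 2.08 FPKM in SCNT. PAX6 was called lower only in KDM4E-SCNT (adjusted p = 0.0338) and EOMES only in IVF (adjusted p = 0.0423). Without KDM4E-SCNT replicate 2, LHX2 and MSX1 alone kept their calls in KDM4E-SCNT, so GATA6, HAND2 and PAX6 lost theirs. Between KDM4E-SCNT and IVF, 0 of the 22 were called in limma, against 6.52% of all features, and 2 had an unadjusted p under 0.05.

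The genes most like each of the 6 across the 8 libraries were taken from 5063 features with a symbol and a mean log2(FPKM + 1) of at least 3, by the root mean square difference of the centred values. For EZH2 they were ASB3 (0.079), NSRP1 (0.118) and NASP (0.127), the last a histone chaperone. EED was nearest to CYCS, cytochrome c, (0.15), NFX1 (0.154) and the splicing factor SFPQ (0.161). SUZ12 had looser neighbours, PYROXD1 (0.241), NIPSNAP3A (0.241) and NDUFAF5 (0.310). Next to KDM6A stood MGEA5 (0.164), which removes O-GlcNAc from proteins, and U2AF1L4 (0.194). KDM6A itself lay below the level set for candidates, and its likeness to them depends on the pseudocount. It stood at 0.04 to 0.36 FPKM in IVF and 8.3 to 12.42 FPKM in SCNT, against 7.5 to 8.02 and 74.83 to 97.06 FPKM for MGEA5. For SETD2 they were GLA (0.234), hexokinase HK2 (0.236) and importin IPO5 (0.247), and for KMT5B they were CDCA7L (0.153), CCDC171 (0.160) and POC1B (0.169). PYROXD1, for example, stood at 19.71 and 5.72 FPKM in KDM4E-SCNT, 6.44 to 8.75 FPKM in IVF and 46.2 to 55.21 FPKM in SCNT, so it shared the wide KDM4E-SCNT pair of SUZ12. CDCA7L stood at 21.55 and 32.96 FPKM in KDM4E-SCNT, 26.12 to 41.42 FPKM in IVF and 4.46 to 6.93 FPKM in SCNT, below KMT5B in level and alike in shape.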

How the data were processed

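RNA from pools of 8 embryos was measured in 8 libraries. Per the labels' protocols, cDNA was tailed, amplified by PCR, fragmented and sequenced. Per the submitters' processing notes, the build was UMD3.1 and the tools were RSEM 1.2.12, Bowtie2 2.2.5, StringTie 1.0.4, HISAT 0.1.6 and bcl2fastq 2.16; the role of each is not given in the sources used here. The authors deposited 1 file per library with FPKM per feature, per the file headers; FPKM do not give the read depth, so counting error is unknown. Amplified cDNA without molecular identifiers can distort levels.

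Features with at least 1 FPKM in at least 2 libraries were kept (14839, with 6419 set aside). Values were tested as log2(FPKM + 1) with limma 3.58.1 in R 4.3.3 (limma-trend, robust moderation, 1 model over all 8 libraries with group means). P-values were two-sided and adjusted by Benjamini-Hochberg over all features per comparison. Groups came from the labels' titles. Shares were compared with exact permutation tests (scipy 1.17.1). Alternatives were another pseudocount, no or a stricter filter, 3 other scalings, a fit of only the groups compared, plain moderation, a replicate block and leaving out each library. The scripts were tested on simulated data. Nearest relatives, up to 3 called genes per list and comparison with the smallest p, and the 3 nearest features per gene were named by rule (1 of those nearest to KDM6A is not reported here); the 3 markers with the highest means were named per marker list. Members and lists were chosen with earlier results of these data known.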

Additional observations from a re-analysis of the deposited data

How the results depend on the processing

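Of the 6 genes, EED, SUZ12, KDM6A, SETD2 and KMT5B kept direction and call in IVF minus SCNT under all 17 alternatives, as did EED, SUZ12 and KMT5B in KDM4E-SCNT minus SCNT, where 2 of the alternatives leave 1 KDM4E-SCNT library whose spread is taken from the other groups. Leaving out single libraries left 5 to 6 genes called in IVF minus SCNT, 3 to 5 in KDM4E-SCNT minus SCNT (3 without KDM4E-SCNT replicate 2) and 0 to 3 in KDM4E-SCNT minus IVF (0 without KDM4E-SCNT replicate 1). Over all features these counts ran from 7286 to 8819, from 1553 to 5242 and from 298 to 1301. A fit of only KDM4E-SCNT and IVF called 1 of the 6 genes and 541 features. SUZ12 in KDM4E-SCNT minus IVF ran from -0.36 to 1.12, and median-ratio scaling gave -0.15 for RBBP7 and -0.28 for MTF2 in IVF minus SCNT, where quantile normalization called RBBP7 higher (0.91). The difference in EZH2 share ran from 15.2 to 20.4 points (IVF minus SCNT), 11.2 to 13.1 (KDM4E-SCNT minus SCNT) and -8.28 to -3.06 (KDM4E-SCNT minus IVF), an alternative chosen after seeing the data. The cause of these changes was not tested. Depth is unknown, so the counting error of low genes such as KDM6A in IVF cannot be stated.

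Whether the replicate numbers pair the samples could not be decided. In their deviations from group means, same-numbered libraries correlated at 0.00649 to 0.123 and differently numbered ones at -0.134 to 0.134. Among SCNT libraries, IVF replicates 1 and 2 correlated best with the same number (0.0602 and 0.0934), and IVF replicate 3 with SCNT replicate 1 (0.0702). The deviations within a group are tied to one another, so these correlations are not independent. With the replicate block, 6 genes and 8656 features were called in IVF minus SCNT. The block gave 5 genes and 4252 features between KDM4E-SCNT and SCNT, and 3 genes and 957 features between KDM4E-SCNT and IVF.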
